A study of Mus musculus with 8 samples.

Results

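The core circadian clock loop was examined in liver RNA-seq through 10 listed genes: the activators Arntl, Clock and Npas2, the repressors Per1, Per2, Per3, Cry1 and Cry2, and the nuclear receptors Nr1d1 and Nr1d2. The genes were chosen by name, and all 10 were found among the 34547 genes in the tables. They were measured in 4 Nudt7 livers, from C57BL/6J mice given an adeno-associated virus (AAV, a vector that reaches the liver from the blood) carrying mouse Nudt7, and in 4 GFP livers, from mice of the same strain given an AAV carrying GFP. All 8 mice received 2.5e+11 particles by tail vein at 8 weeks of age, and after 3 to 4 weeks the livers were taken at an age of 11 to 12 weeks, following a 24 h fast. The promoter driving the transgene, the sex of the mice and the hour of day at which each liver was taken were not stated in the labels.

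In the clock, ARNTL (also called BMAL1) pairs with CLOCK or its relative NPAS2, and the pair binds E-boxes to switch on the Per, Cry and Nr1d genes. PER and CRY proteins return to the nucleus and inhibit the pair, while NR1D1 and NR1D2 (REV-ERB alpha and beta) bind RORE elements and repress Arntl, Clock and Npas2. In mouse liver the transcripts of the activators and of Nr1d1 therefore peak at opposite times of day, and feeding, glucocorticoids and temperature can shift or override part of the cycle.

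Libraries held 11187806 to 23640734 estimated reads, and the tests covered 13678 genes with sufficient counts. Nudt7 itself was at 1301, 1599, 3569 and 1555 CPM (counts scaled to library size, with TMM factors) in Nudt7 livers, against 60.7, 75.9, 79.9 and 72.9 CPM in GFP livers. Hepatocyte markers summed to 58781 to 89302 CPM in Nudt7 livers, against 71869 to 91403 CPM in GFP livers. Nudt7 replicate 3 stood apart: it was at 63.1 on the first principal component, against −19.9 to 2.83 for the other libraries, its genes with short transcripts lay 0.36 log2 units above their mean over the libraries and those with long transcripts at −0.32 (medians of the shortest and longest of 3 equal classes). Values without this library are given for the clock genes they move most.

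None of the 10 clock genes passed the test between Nudt7 and GFP livers (edgeR quasi-likelihood test, Benjamini-Hochberg adjustment over all genes tested, threshold 0.05). At that threshold 0.117% of all tested genes were called, 6 higher and 10 lower in Nudt7 livers. Per1 alone had an unadjusted p under 0.05, as did 8.28% of all tested genes, and 0 of the 10 were called by DESeq2 (which called 1.17% of its genes), by limma-voom (0.0585%) or by limma-voom given sample weights (0.753%). In these bulk samples, fewer cells of a type and less RNA per cell cannot be told apart. The fold changes were negative for 7 members and positive for 3, with a median of −0.11 log2 units, against −0.00 for all tested genes, 50.2% of which were below 0. The groups overlapped for all 10, and they did not overlap for 5.75% of all tested genes.

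**Figure D1:**
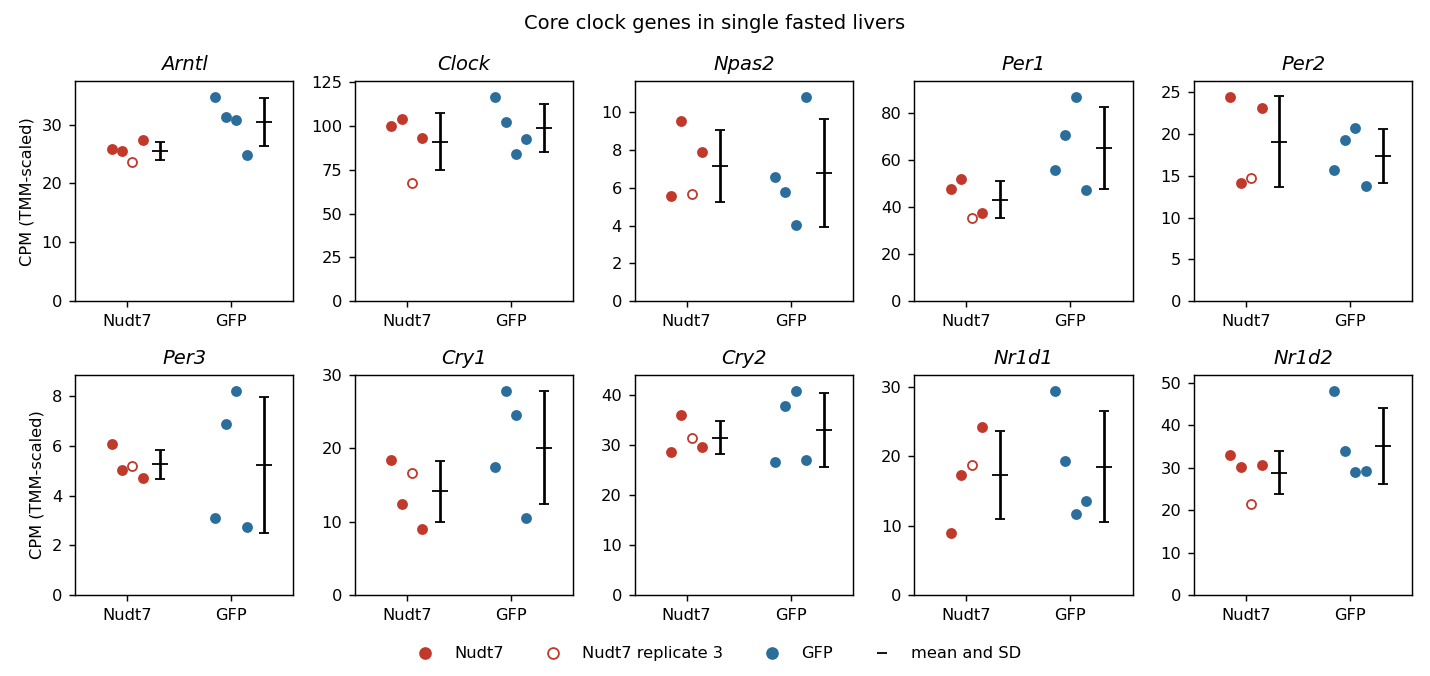
Level of each core clock gene in single fasted livers, in TMM-scaled CPM on an axis that starts at 0, with Nudt7 livers in red and GFP livers in blue. Points are livers, the open point is Nudt7 replicate 3, and bars give the mean ± SD of 4 livers; the groups overlap in all 10 panels.

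Arntl encodes the partner that both CLOCK and NPAS2 need, and it was the steadiest of the members. Its levels were 25.9, 25.4, 23.6 and 27.3 CPM in Nudt7 livers, against 34.6, 31.3, 30.7 and 24.8 CPM in GFP livers. Every Nudt7 liver lay below GFP replicates 1, 2 and 3, and GFP replicate 4 lay among the Nudt7 livers. The log2 fold change was −0.25 (SE 0.13, 95% interval −0.52 to 0.03, edgeR adjusted p = 0.643), so the data leave room for a level between 0.697 and 1.02 times that of GFP livers. Without GFP replicate 1 it was −0.16. Without GFP replicate 4 it was −0.32, and in limma-voom with sample weights it was −0.26. In both fits the unadjusted p was under 0.05, but Arntl did not pass after adjustment.

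Clock, which encodes the acetyltransferase partner of ARNTL, was at 100.1, 103.7, 67.4 and 92.8 CPM in Nudt7 livers, against 116.3, 102.4, 83.97 and 92.7 CPM in GFP livers. The lowest value was that of Nudt7 replicate 3, and the other Nudt7 livers fell within the GFP range. The log2 fold change was −0.12 (SE 0.16, 95% interval −0.47 to 0.23, edgeR adjusted p = 0.843), and it was 0.01 without Nudt7 replicate 3. Clock had the longest transcripts of the members, 7874 bases when weighted by TPM, and genes with long transcripts were low in that library. With the trend of level on transcript length removed from every library, the deviation of Nudt7 replicate 3 from the mean of the livers was 0.10 log2 units in place of −0.48.

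Npas2, the stand-in for Clock, was at 5.54, 9.54, 5.68 and 7.88 CPM in Nudt7 livers, against 6.58, 5.77, 4.01 and 10.8 CPM in GFP livers. High and low livers occurred in both groups. The log2 fold change was 0.06 (SE 0.29, 95% interval −0.57 to 0.68, edgeR adjusted p = 0.968) and its sign was negative without Nudt7 replicate 2, GFP replicate 2 or GFP replicate 3 (−0.11, −0.01 and −0.11); it was 0.15 without Nudt7 replicate 3. Npas2 rested on 48 to 248 estimated reads per library, for which counting error alone is 14.4% at the lowest count.

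Of the promoter windows used here (250 bases before to 50 after each RefSeq start, GRCm38.p6), 13 belong to 9 of the members. The windows were searched on both strands for the E-box CACGTG, the D-box TTANGTAA (the site of the PAR-bZIP factors DBP, TEF and HLF, and of NFIL3), the RORE cores TAGGTCA and TGGGTCA, and the cAMP element TGACGTCA. The E-box was found in 7.15% of 32851 windows of all genes, the D-box in 2.32%, a RORE core in 6.45% and the cAMP element in 1.79%. Among the members, windows of Cry1 and Per1 held the E-box, that of Per3 held the D-box at 2 places, and 1 Arntl window held a RORE core. These stretches are shown because they hold the letters that the factors of the loop are known to bind; a match is a description, not a site. Capitals mark the motif, and all are written 5′ to 3′ on the strand of the gene. They lie at chr7:113207530-113207558 (plus strand, Arntl, within an exon), chr10:85185073-85185150 (minus strand, Cry1), chr11:69098747-69098824 (plus strand, Per1) and chr4:151044796-151044890 (minus strand, Per3). The Per1 stretch lies inside the gene, which spans chr11:69095217-69109960, so its window is that of an internal start and not of the 5′ end.
Arntl: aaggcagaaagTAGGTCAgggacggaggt
Cry1: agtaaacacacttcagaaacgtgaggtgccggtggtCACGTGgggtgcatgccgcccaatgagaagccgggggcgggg
Per1: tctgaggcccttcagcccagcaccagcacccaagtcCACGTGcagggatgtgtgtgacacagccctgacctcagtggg
Per3: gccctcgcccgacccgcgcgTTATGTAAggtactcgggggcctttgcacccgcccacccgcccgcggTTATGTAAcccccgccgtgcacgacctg

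Per1, a repressor gene that is also switched on directly by glucocorticoids and cAMP, had the largest fold change of the 10 in size in the edgeR fit to all libraries; that of Cry1 was larger with weighted limma-voom (−0.69, against −0.57 for Per1) and when Nudt7 replicate 1, Nudt7 replicate 3 or GFP replicate 4 was left out. Its levels were 47.7, 51.8, 35.5 and 37.5 CPM in Nudt7 livers, against 55.7, 70.6, 86.5 and 47.2 CPM in GFP livers. Nudt7 replicates 3 and 4 lay below all GFP livers, while Nudt7 replicates 1 and 2 lay above GFP replicate 4. Per1 averaged 43.1 ± 7.89 CPM in Nudt7 livers, against 65.0 ± 17.3 CPM for GFP (mean ± SD of 4), a log2 fold change of −0.59 (SE 0.19, 95% interval −1.02 to −0.16). The edgeR adjusted p was 0.444 (unadjusted p = 0.0110), and over all alternative fits it lay between 0.161 and 0.843. Without Nudt7 replicate 3 the log2 fold change was −0.49 (edgeR adjusted p = 0.551).

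Per2, the paralog whose loss shortens the period in mice, was at 24.4, 14.1, 14.7 and 23.1 CPM in Nudt7 livers, against 15.7, 19.3, 20.7 and 13.7 CPM in GFP livers. Nudt7 replicates 1 and 4 lay above every GFP liver, and the other Nudt7 livers lay near the low end of the GFP range. Its log2 fold change was 0.15 (SE 0.21, 95% interval −0.30 to 0.59, edgeR adjusted p = 0.851). It was 0.02 without Nudt7 replicate 1 and 0.27 without Nudt7 replicate 3. Per1 and Per2 had the same order of livers within the GFP group but not within the Nudt7 group. In TPM (a level scaled for transcript length and library size), summed without transcripts under 500 bases, the ratio of Per1 to Per2 was 2.66, 5.17, 3.14 and 2.31 in Nudt7 livers, against 4.92, 5.07, 5.92 and 4.84 in GFP livers. With all transcripts it was 1.55, 2.63, 3.14 and 1.64 in Nudt7 livers, against 2.15, 3.69, 5.92 and 3.15 in GFP livers. Without these transcripts the GFP ratios lay closer together and the Nudt7 ratios further apart. Of the transcripts left out, the 231-base Per2 one took 0% to 59.3% of Per2 TPM in single livers.

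Per3, the least abundant member, was at 6.09, 5.03, 5.19 and 4.69 CPM in Nudt7 livers, against 3.12, 6.86, 8.20 and 2.74 CPM in GFP livers. The 4 Nudt7 livers fell in the gap between the low pair and the high pair of GFP livers. The mean level was 5.25 ± 0.597 CPM in Nudt7 livers, against 5.23 ± 2.72 CPM for GFP (mean ± SD of 4). The fold change was 0.03 on the log2 scale (SE 0.33, 95% interval −0.68 to 0.74, edgeR adjusted p = 0.985). The gene rested on 45.1 to 98.5 estimated reads per library, where counting error is 14.9% to 10.1%.

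Cry1 encodes the cryptochrome that acts as the stronger late repressor. It was at 18.4, 12.5, 16.6 and 9.06 CPM in Nudt7 livers, against 17.4, 27.8, 24.6 and 10.6 CPM in GFP livers. GFP replicates 2 and 3 lay above every other liver, whereas GFP replicate 4 and Nudt7 replicate 4 were the lowest of their groups. Its fold change was −0.50 log2 units (SE 0.29, 95% interval −1.15 to 0.15, edgeR adjusted p = 0.670). It was −0.29 without GFP replicate 2 and −0.70 without GFP replicate 4; in the second case, and in weighted limma-voom, the unadjusted p was under 0.05. Its paralog Cry2 was at 28.7, 36.1, 31.5 and 29.7 CPM in Nudt7 livers, against 26.7, 37.8, 40.8 and 26.9 CPM in GFP livers. The Cry2 levels of all 4 Nudt7 livers were inside the GFP range (log2 fold change −0.07, SE 0.16, 95% interval −0.42 to 0.28, edgeR adjusted p = 0.918).

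Nr1d1, the gene of REV-ERB alpha, varied more between livers in CPM than any other member (in TPM the within-group SD was 0.55 for Nr1d1 and 0.62 for Per2). Nr1d1 was at 8.90, 17.2, 18.7 and 24.2 CPM in Nudt7 livers, against 29.4, 19.4, 11.6 and 13.5 CPM in GFP livers. The lowest liver was a Nudt7 liver and the highest a GFP liver, with the rest interleaved. The log2 fold change was −0.09 (SE 0.33, 95% interval −0.81 to 0.62, edgeR adjusted p = 0.951), and it was 0.14 without Nudt7 replicate 1 and 0.24 without GFP replicate 1. The 3′ end of Nr1d1 shares 263 exon bases, 8.55% of its exon length, with Thra on the opposite strand, and whether strand was used in the counting was not stated in the labels.

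Nr1d2, the gene of REV-ERB beta, was at 33.0, 30.1, 21.4 and 30.6 CPM in Nudt7 livers, against 48.0, 34.0, 29.1 and 29.3 CPM in GFP livers. Nudt7 replicate 3 was the lowest and GFP replicate 1 the highest, and the other livers lay close together. Its fold change was −0.29 log2 units (SE 0.19, 95% interval −0.69 to 0.12, edgeR adjusted p = 0.694). It was −0.08 without GFP replicate 1 and −0.16 without Nudt7 replicate 3.

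**Figure D2:**
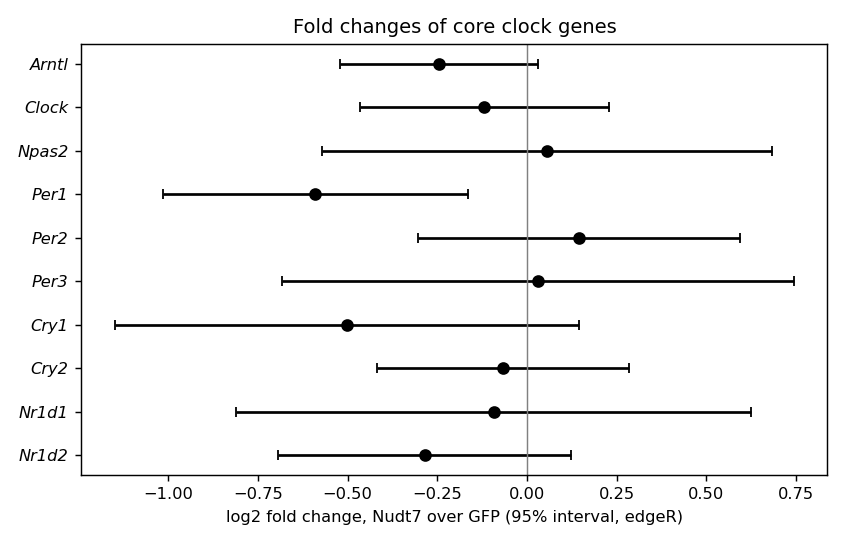
Log2 fold change of each core clock gene, Nudt7 over GFP livers, with the 95% interval of the edgeR quasi-likelihood fit (4 livers a group). The interval of Per1 runs from −1.02 to −0.16 before adjustment over all genes, and the other 9 intervals include 0.

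The intervals were computed gene by gene, before adjustment over all genes, and give the levels that the data leave room for. They are not limits of detection, because the interval of Per1 excluded an equal level in both groups and Per1 was not called. They were narrowest for Arntl, Clock and Cry2, whose levels in Nudt7 livers could lie between 0.697 and 1.22 times those of GFP livers across the 3 genes. They were widest for Nr1d1 and Per3, from 0.570 to 1.54 times and from 0.623 to 1.67 times. For Per1 the interval was 0.494 to 0.893 times, and for Cry1 it was 0.451 to 1.11 times.

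Compared per length, Clock had the highest mean level of the members over the 8 livers, 18.8 ± 4.26 TPM, followed by Per1 at 17.4 ± 6.90, Nr1d2 at 14.95 ± 4.46, Arntl at 13.3 ± 2.80 and Cry2 at 13.2 ± 3.34 TPM (SD, n = 8 livers). Nr1d1 was at 9.92 ± 3.83, Cry1 at 9.28 ± 4.04, Per2 at 6.395 ± 2.42, Npas2 at 4.68 ± 1.47 and Per3 at 1.67 ± 0.810 TPM. Neighbours in this order were mostly not separable: Clock exceeded Per1 in 6 of 8 livers, Arntl exceeded Cry2 in 3 of 8, and Nr1d1 exceeded Cry1 in 5 of 8. Of the 9 neighbouring pairs, Npas2 and Per3 alone kept their order in 8 of 8 livers, and this was 5 of 8 without transcripts under 500 bases.

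The transcript tables qualify 2 of these levels. For Npas2, transcripts under 500 bases took 55.9% of the TPM but 5.73% of the reads, 2.54 to 12.0 estimated reads per library, most of that TPM in the 484-base ENSMUST00000173050.7. The 4236-base ENSMUST00000056815.8, which carried the other reads, was at 2.03 ± 0.726 TPM in Nudt7 livers, against 2.10 ± 0.765 TPM for GFP (mean ± SD of 4). For Per2, the 231-base noncoding ENSMUST00000185298.1 took 37.7% of the TPM on 0 to 5.33 reads per library. Summed without transcripts under 500 bases, Per2 stood at 3.98 TPM and Npas2 at 2.07 TPM, against 1.67 TPM for Per3.

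For most other members a long coding transcript carried most of the level. ENSMUST00000047321.8 took 74.0% ± 8.57 of Arntl TPM in Nudt7 livers, against 67.7% ± 12.5 in GFP livers, and ENSMUST00000064941.6 took 85.6% ± 1.92 of Nr1d1 TPM in Nudt7 livers, against 87.5% ± 3.61 for GFP (mean ± SD of 4). Per1 was split mainly between ENSMUST00000021271.13, at 56.9% in Nudt7 livers and 63.0% in GFP livers, and ENSMUST00000101004.8, at 25.7% and 28.5% in the same groups. A further coding Per1 transcript, ENSMUST00000166748.7, took 22.8%, 8.90%, 0.00471% and 12.5% in Nudt7 livers. In GFP livers it took 0.00555%, 0.203%, 0.364% and 2.41%. Nudt7 replicate 3 was thus as low as the GFP livers, and the difference in share was not tested. Per3 was the least settled, with coding, retained-intron and noncoding transcripts each taking part of its TPM; its full coding transcript ENSMUST00000103204.10 took 33.3% in Nudt7 livers and 34.8% in GFP livers.

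The members differed widely in how much they varied between livers that had received the same virus. Pooled over both groups, the within-group SD of log2 CPM was 0.60 for Nr1d1, 0.56 for Per3, 0.54 for Cry1 and 0.49 for Npas2. The median was 0.26 for all tested genes. These SDs exceeded those of 94.2% (Nr1d1), 92.3% (Per3), 91.5% (Cry1) and 87.4% (Npas2) of tested genes. The Per3 spread came from the GFP livers, with an SD of 0.77 there and 0.16 in Nudt7 livers. In Nudt7 and GFP livers in turn, the SD was 0.61 and 0.59 for Nr1d1, 0.46 and 0.62 for Cry1, and 0.37 and 0.58 for Npas2. Against tested genes within 2-fold in mean CPM, the Nr1d1 SD exceeded 98.5% of 4554 genes and that of Cry1 97.4% of 4519. Arntl was at the other end, with an SD of 0.15, larger than that of 17.5% of tested genes. Clock (0.25), Cry2 (0.25), Nr1d2 (0.31), Per1 (0.33) and Per2 (0.35) lay between. At the lowest count of each gene, counting error was 9.36% for Nr1d1 and 8.48% for Cry1.

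**Figure D3:**
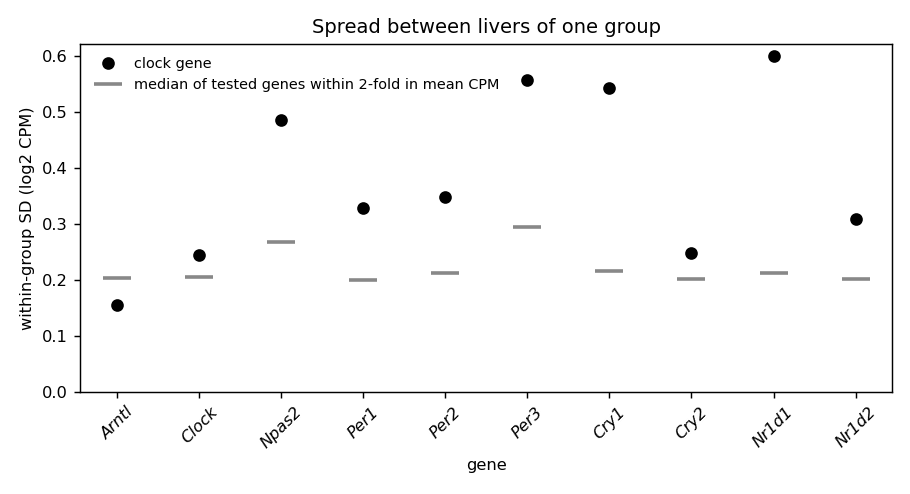
Within-group SD of log2 CPM for each core clock gene (points, pooled over both groups, 8 livers) beside the median SD of tested genes within 2-fold of it in mean CPM (bars). Nr1d1, at 0.60, is the highest point and Arntl, at 0.15, is the only member below its bar.

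The livers were then set side by side to see which members moved together. GFP replicate 1 was high in Nr1d1 (0.80 log2 units above the mean of the 8 livers), Nr1d2 (0.62), Arntl (0.32) and Clock (0.31), and low in Per3 (−0.65). GFP replicate 3 was high in Per1 (0.73), Per3 (0.71) and Cry1 (0.61) and low in Npas2 (−0.71) and Nr1d1 (−0.52). GFP replicate 2 was high in the same genes, Cry1 (0.79), Per3 (0.46) and Per1 (0.44), with Npas2 at −0.20 and Nr1d1 at 0.21. GFP replicate 4 was high in Npas2 (0.68) and low in Per3 (−0.82) and Cry1 (−0.60). Among Nudt7 livers, replicate 1 was high in Per2 (0.45) and low in Nr1d1 (−0.90), and replicate 4 was high in Nr1d1 (0.53) and low in Cry1 (−0.81) and Per1 (−0.47).

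**Figure D4:**
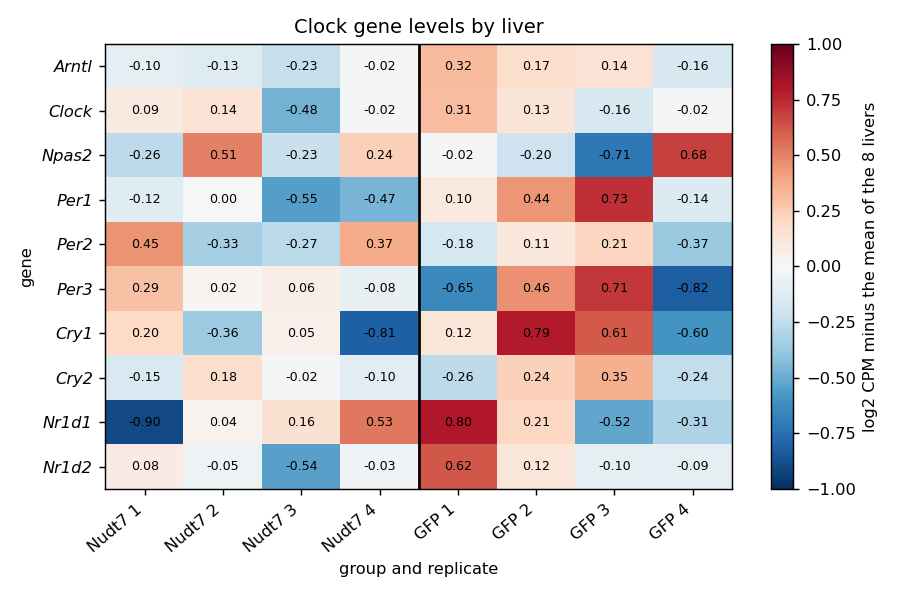
Log2 CPM of each core clock gene in each liver minus the mean of the 8 livers, Nudt7 livers to the left of the line and GFP livers to the right. GFP replicates 1, 3 and 4 show different sets of high genes (Nr1d1 at 0.80, Per1 at 0.73 and Npas2 at 0.68), and no column is high or low in all members. GFP replicate 2 shares the high Cry1 (0.79), Per3 (0.46) and Per1 (0.44) of GFP replicate 3.

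Correlations were computed after subtracting the group means, over 8 livers and all 45 pairs, with a two-sided exact permutation test over all arrangements within groups and Benjamini-Hochberg adjustment over the 45. At an adjusted p under 0.05, 0 pairs passed, and 5 had an unadjusted p under 0.05. The smallest p that 8 livers allow is 0.00174, which becomes 0.0781 for a lone pair among the 45, so no pair could have passed alone. Arntl and Nr1d1, opposite arms of the loop, had r = 0.46 (exact permutation p = 0.297, adjusted p = 0.765) and rho = 0.52 (exact permutation p = 0.220). Without GFP replicates 1 and 4, the livers farthest from the median in Arntl, r was 0.14. Arntl and Nr1d2 had r = 0.74 (exact permutation p = 0.0799, adjusted p = 0.525), rho = 0.62 (exact permutation p = 0.106) and r = 0.83 without those livers. The paralogs Nr1d1 and Nr1d2 had r = 0.34 (exact permutation p = 0.458, adjusted p = 0.765) and rho = 0.24 (exact permutation p = 0.620); r was 0.78 without Nudt7 replicate 1 and GFP replicate 3, but −0.18 without GFP replicate 1 alone.

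The 5 pairs with an unadjusted p under 0.05 are named here after their values were seen. Per3 correlated with Cry1 at r = 0.81 (exact permutation p = 0.0243, adjusted p = 0.328) and rho = 0.86 (exact permutation p = 0.0174), and r was 0.73 without GFP replicates 3 and 4. Per3 and Per1 had r = 0.83 (exact permutation p = 0.0365, adjusted p = 0.328) and rho = 0.71 (exact permutation p = 0.118), with r = 0.56 without GFP replicates 3 and 4. Npas2 ran against both repressors, at r = −0.84 with Cry1 (exact permutation p = 0.0312, adjusted p = 0.328; rho = −0.81, exact permutation p = 0.0382) and r = −0.79 with Per3 (exact permutation p = 0.0139, adjusted p = 0.312; rho = −0.83, exact permutation p = 0.0104). Without GFP replicates 3 and 4 these were −0.73 with Cry1 and −0.40 with Per3, and the second rests in part on those livers. In TPM they were −0.47 with Cry1 and −0.26 with Per3.

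Clock and Nr1d2 had the highest r of all pairs, 0.91 (exact permutation p = 0.0122, adjusted p = 0.312), with rho = 0.88 (exact permutation p = 0.0191), and r = 0.87 without Nudt7 replicate 3 and GFP replicate 3. Both were lowest in Nudt7 replicate 3, and with the trend on transcript length removed from each library r was 0.44. Of the listed pairs within one arm, Arntl and Clock had r = 0.54, Per1 and Per2 r = 0.42, and Per2 and Per3 r = 0.58, with adjusted p values of 0.611, 0.765 and 0.586 (exact permutation). Arntl and Npas2, which share the RORE-driven arm, had r = −0.41 (exact permutation adjusted p = 0.765), and r was 0.57 without GFP replicate 4.

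**Figure D5:**
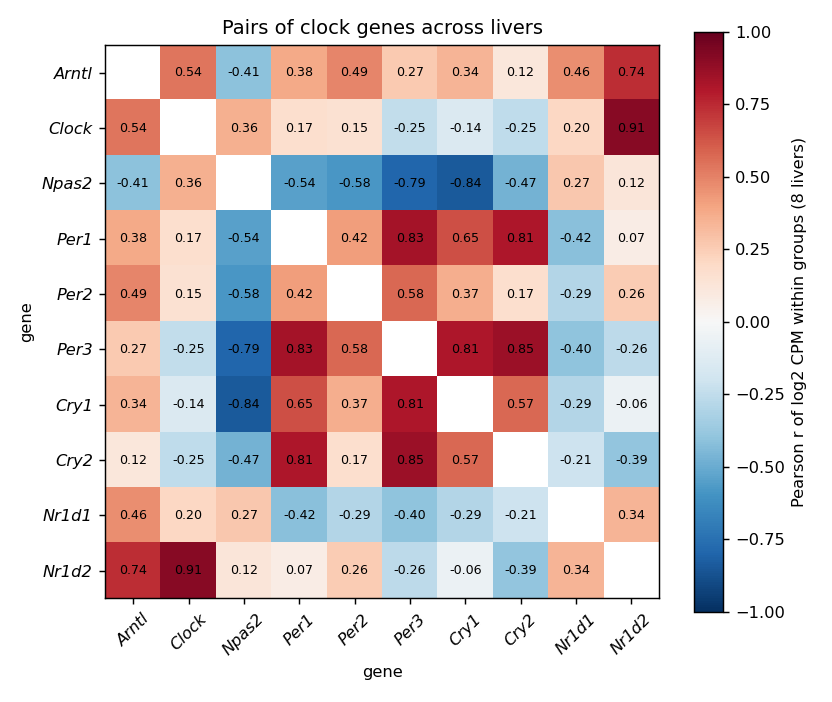
Pearson r between core clock genes over 8 livers, from log2 CPM after subtracting each group's mean. Per1, Per3, Cry1 and Cry2 form a block of positive values and Npas2 is negative against it (−0.84 with Cry1), though without GFP replicates 3 and 4 it is positive with Per1 (0.25) and Cry2 (0.24); 0 of the 45 pairs passed after adjustment.

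The genes most like 3 members over the 8 livers, among 9293 genes with a mean of at least 5 CPM, were not clock genes. By Pearson r of log2 CPM, Pnrc1 (0.96), Ggps1 (0.96) and Mafg (0.94) were most like Arntl, Aspa (0.92), Ell (0.83) and Hspa8 (0.83) most like Nr1d1, and Strbp (0.97), Klhl12 (0.96) and Ing5 (0.95) most like Per1. The best-placed clock member was at place 197 for Arntl (Nr1d2), 779 for Nr1d1 (Arntl) and 306 for Per1 (Cry1). These are the highest of many values, over livers with the same stated library protocol, and are given as a description.

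Around the loop, 18 genes of clock regulators (casein kinases, ubiquitin ligases, ROR receptors, BHLHE40 and BHLHE41 and others) were all tested, and 0 passed in either direction in edgeR, DESeq2 or limma-voom, with 1 at an unadjusted p under 0.05. Their median log2 fold change was −0.08, with 7 positive and 11 negative. Among all tested genes 0.117% passed in edgeR, 8.28% had such a p and 50.2% were negative. Sirt1, the gene of an NAD-dependent deacetylase that acts on the clock, was at 14.7, 13.6, 11.2 and 13.3 CPM in Nudt7 livers, against 18.7, 18.4, 16.4 and 17.1 CPM in GFP livers. The groups did not overlap for Sirt1, as for 5.75% of all tested genes, but it missed the threshold (log2 fold change −0.42, SE 0.13, edgeR adjusted p = 0.365). Rora and Rorb, genes of receptors that compete with NR1D1 and NR1D2 at RORE elements, were at −0.20 (SE 0.18, and −0.06 without Nudt7 replicate 3) and 0.54 (SE 0.29) in log2 fold change, and Csnk1e, a casein kinase gene, was at −0.17 (SE 0.13).

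Of 17 clock output genes, all tested, 0 passed in edgeR over all genes, 6 had an unadjusted p under 0.05 (8.28% of all tested genes) and 4 had groups that did not overlap (5.75% of all tested genes). DESeq2 called 2 of them (1.17% of all its genes), limma-voom 0 (0.0585%) and weighted limma-voom 1 (0.753%). The median log2 fold change was −0.13, with 7 positive and 10 negative (50.2% of all tested genes were negative). Dbp, the PAR-bZIP factor driven directly by CLOCK and ARNTL, was low throughout, at 2.19, 2.12, 3.54 and 3.00 CPM in Nudt7 livers, against 1.80, 3.07, 2.09 and 1.83 CPM in GFP livers (log2 fold change 0.32, SE 0.26, edgeR adjusted p = 0.741). Nfil3, the repressor that competes with DBP at D-boxes, was at 17.9, 14.3, 19.3 and 24.6 CPM in Nudt7 livers, against 37.1, 30.0, 26.9 and 25.3 CPM in GFP livers. Its groups lay just apart, and it missed the threshold (−0.65, SE 0.18, edgeR adjusted p = 0.289).

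Lpin1, a phosphatidate phosphatase gene that is rhythmic and induced in fasting, was at 415, 162, 394 and 196 CPM in Nudt7 livers, against 815, 1106, 660 and 1111 CPM in GFP livers. Every Nudt7 liver lay below every GFP liver (log2 fold change −1.66, SE 0.31, edgeR adjusted p = 0.0990), and it was called lower by DESeq2 and by the weighted limma-voom fit. Alas1, the rate-limiting enzyme gene of heme synthesis and a known rhythmic gene, was at 469, 723, 540 and 522 CPM in Nudt7 livers, against 387, 368, 363 and 406 CPM in GFP livers. All 4 Nudt7 values exceeded all 4 GFP values (0.56, SE 0.15, edgeR adjusted p = 0.276), and DESeq2 called it higher (DESeq2 adjusted p = 0.0194). Elovl3, a fatty acid elongase gene, was at 0.71 (SE 0.25, edgeR adjusted p = 0.470).

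Genes that respond to glucocorticoids or cAMP, signals that also act on Per1, were counted as well. The signals themselves were not measured, and a link between these genes and the Per1 level was not tested. Of 16 glucocorticoid-responsive genes tested, 1 fell and 0 rose, with 8 at an unadjusted p under 0.05, 12 negative and a median log2 fold change of −0.43. Over all tested genes 0.117% were called, 8.28% had such a p and 50.2% were negative. This list, like the others, was chosen with earlier results of these data known, so the counts are a description. Fkbp5, whose protein restrains glucocorticoid receptor signalling, was at 96.5, 168, 145 and 135 CPM in Nudt7 livers, against 279, 283, 253 and 359 CPM in GFP livers. It fell by 1.11 on the log2 scale (SE 0.18, edgeR adjusted p = 0.0476), and the adjusted p was between 0.0578 and 0.188 whenever any 1 library was left out and 0.0597 in limma-voom. Ddit4 (−2.07, SE 0.46, edgeR adjusted p = 0.179), Zbtb16 (−0.98, SE 0.23, edgeR adjusted p = 0.175) and Tat (−0.85, SE 0.21, edgeR adjusted p = 0.225) missed the threshold in edgeR. DESeq2, which called 1.17% of all its genes, called 5 of this list lower (those 4 and Errfi1). Weighted limma-voom, which called 0.753% of all tested genes, called 3 lower (Fkbp5, Tat and Zbtb16). Limma-voom, which called 0.0585%, called 0.

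Of the 10 tested genes induced by cAMP or early after stimulation, 0 passed in edgeR or in limma-voom with or without weights. In edgeR 4 had an unadjusted p under 0.05 (8.28% of all tested genes) and 8 were negative (50.2% of all tested genes), with a median of −0.40. Egr1 was at −1.03 (SE 0.23, edgeR adjusted p = 0.153). It was called lower by DESeq2 (DESeq2 adjusted p = 0.00768) and by edgeR without GFP replicate 3 (adjusted p = 0.0376), and its adjusted p lay between 0.0918 and 0.444 in the other fits. Junb was at −0.52 (SE 0.15, edgeR adjusted p = 0.351), Pck1 at −0.57 (SE 0.23) and Ppargc1a at −0.75 (SE 0.32) in log2 fold change. Of 8 heat shock and cold-inducible genes 0 passed and 0 had an unadjusted p under 0.05 in edgeR, DESeq2 or limma-voom (median 0.20), with Cirbp at 0.33 (SE 0.21), Rbm3 at 0.27 (SE 0.20, and 0.06 without Nudt7 replicate 3), Hspa1b at 0.36 (SE 0.36) and Hspa1a at 0.27 (SE 0.33).

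Markers of other cells were set beside these values. Red blood cell markers summed to 303 to 1813 CPM in Nudt7 livers, against 412 to 598 CPM in GFP livers (5 of 6 tested), the highest in Nudt7 replicate 3. Kupffer cell markers summed to 102 to 235 CPM in Nudt7 livers, against 111 to 183 CPM in GFP livers (7 of 7 tested). Endothelial markers summed to 397 to 439 CPM in Nudt7 livers, against 451 to 491 CPM in GFP livers (7 of 7 tested), stellate markers to 224 to 253 CPM in Nudt7 and 215 to 259 CPM in GFP livers (7 of 7 tested), and cholangiocyte markers to 31.6 to 42.5 CPM in Nudt7 and 17.3 to 29.4 CPM in GFP livers (5 of 6 tested). Lymphocyte markers summed to 2.30 to 3.84 CPM in Nudt7 livers, against 1.9995 to 4.27 CPM in GFP livers (3 of 6 tested), 0 of 5 neutrophil markers had enough reads to be tested, and no listed marker was at 0 in all libraries. Endothelial sums were lower and cholangiocyte sums higher in every Nudt7 liver than in every GFP liver. Of single markers, the groups did not overlap for 1 of 7 endothelial and 1 of 5 cholangiocyte genes (5.75% of all tested genes). In edgeR 0 of either list were called (0.117% of all tested genes). Log2 fold changes were negative for 6 endothelial markers and positive for 1, and positive for 4 cholangiocyte markers and negative for 1. Their part in the clock gene values was not tested.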

How the data were processed

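Per the submitters' processing notes, FastQC, Salmon and DESeq2 were used with build GRCm38; the Salmon version and options were not stated there. The deposited tables hold, per the file headers, expected counts (estimated reads) and TPM per transcript, made by the authors, with lengths in bases. Per the labels' protocols, 500 ng of RNA went into a stranded kit with 9 PCR cycles. Transcripts were named from GENCODE M21 (98.8% of 109282); the rest held 0.552% to 1.06% of reads and were dropped. Gene totals of estimated counts were rounded. The main test was edgeR 4.0.16 quasi-likelihood (robust, TMM, filterByExpr), with DESeq2 1.42.0 and limma 3.58.1 as alternatives, checked on simulated data. Promoters are RefSeq's. Each replicate is a mouse, numbered in accession order; numbers pair no samples. Intervals cover variation between these livers; the counting errors cover counting only, and PCR reads without molecular identifiers are not independent molecules. Named were the 10 members, Nudt7, called genes and the 4 smallest p of each list other than cell markers, and the 3 genes most like Arntl, Nr1d1 and Per1; Dbp, Errfi1 and the 5 correlated pairs were added after values were seen. Members and lists were chosen with earlier results of these data known. The comparison with genes of like level, and levels and ratios without short transcripts, were added after seeing the data. One listed gene is not reported here by name.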

Additional observations from a re-analysis of the deposited data

Results flagged for a closer look

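Of 80 groups of 4 livers examined for a sample far from the others (members in CPM and TPM, and named list genes in CPM), 2 held one, where chance gives about 1 in 20. Clock was at 10.4 TPM in Nudt7 replicate 3, against 18.3 to 19.8 TPM in the other Nudt7 livers. Tat was at 3518 CPM in GFP replicate 2, against 2502 to 2668 CPM in the other GFP livers. In each the gap to the nearest liver, over the range of the group, was above Dixon's 95% critical value (0.845 for Clock and 0.836 for Tat).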

How the results depend on the processing

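None of the 10 members was called in any of the 7 other fits or the 8 fits that each left out 1 library; Arntl, Per1, Per2, Cry1 and Nr1d2 kept their sign throughout. No paired analysis was possible because the labels give the groups no shared replicate numbers. Log2 fold changes near 0 changed sign: leaving out 1 library gave −0.19 to 0.0112 for Clock, −0.11 to 0.40 for Npas2, −0.18 to 0.34 for Per3 (negative without Nudt7 replicate 1, GFP replicate 1 or GFP replicate 4), −0.14 to 0.0645 for Cry2 (positive without GFP replicate 2 or 3) and −0.31 to 0.24 for Nr1d1, and with the length trend removed Clock was at 0.0166. Genes called higher numbered 15 with no low count filter, 87 in DESeq2, 57 in limma-voom with sample weights and 23 with the length trend removed, and 1 to 8 with 1 library left out. Genes called lower numbered 67 in DESeq2, 4 in limma-voom, 46 in limma-voom with sample weights, 6 with effective lengths as an offset, and 1 to 12 with 1 library left out. Clock outputs called numbered 2 in DESeq2 (Lpin1, Alas1) and 1 in limma-voom with sample weights (Lpin1); clock regulators called numbered 0 in all. 0 member pairs passed in 11 alternatives, but with 1 library left out the smallest adjusted p for a lone pair is 0.312, so this says nothing about stability. Among pairs, r changed sign for Arntl-Clock (−0.0577 with the length trend removed), Npas2-Nr1d1 (−0.0458 in TPM) and Per3-Nr1d2 (0.25 in TPM). With 1 library left out, r ranged from −0.56 to 0.57 for Arntl-Npas2, −0.33 to 0.70 for Arntl-Per1, −0.68 to 0.80 for Arntl-Per3 and −0.74 to 0.59 for Arntl-Cry1, reversed without GFP replicate 4. It ranged from −0.0149 to 0.71 for Npas2-Nr1d1 (reversed without GFP replicate 3), and from −0.67 to 0.16 for Per3-Nr1d2 and −0.18 to 0.81 for Nr1d1-Nr1d2 (reversed without GFP replicate 1). The cause was not tested. Depth limits Per3 and Npas2 most, at 45.1 and 48 reads in their lowest libraries.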
